A study of Mus musculus with 18 samples.

Results

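The genes described here encode 10 proteins that build the basement membrane or bind to it: the type IV collagen chains Col4a1 and Col4a2, the laminin chains Lama4, Lamb1 and Lamc1, the nidogens Nid1 and Nid2, perlecan (Hspg2), the collagen XVIII chain Col18a1, and the collagen-binding protein Sparc. They were chosen by name, through the GENCODE mouse symbol of each Ensembl identifier, and all 10 were found among the 54446 gene identifiers counted. RNA was sequenced from mouse embryoid bodies, which are clumps of differentiating embryonic stem cells grown in suspension, in 18 libraries that fall into 6 groups of 3. The starting cells were C57BL/6 embryonic stem cells, kept with LIF and the inhibitors CHIR99021 and PD0325901, and every group was collected after 7 days of culture. One line had a conditional knockout (CKO) of Mettl14 and the other a CKO of Mettl3, the paired subunits of the writer of N6-methyladenosine on mRNA. In the Mettl14 line the groups were a control, the CKO, and the CKO with 5 µM GSK343, an inhibitor of the H3K27 methyltransferase EZH2. In the Mettl3 line they were a control, the CKO, and the CKO with 5 µM GSK-J4, an inhibitor of the H3K27 demethylases KDM6A and KDM6B. Cultures not given an inhibitor received DMSO. Neither control was given an inhibitor, so an inhibitor can be compared only within a knockout. How the deletion was induced and what genotype the controls have is not given in the sources used here. The labels do not say that the 3 libraries of a group came from separate cultures, so the p-values measure the spread between these libraries, which may be technical. The series design asks how an H3K27 methyltransferase inhibitor alters the expression changes of the Mettl14 knockout.

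Basement membranes are thin sheets of extracellular matrix that lie under epithelia and endothelia and around muscle, fat and nerve cells. Laminins, each a trimer of an α, a β and a γ chain joined inside the cell, polymerise at the cell surface and form one network; the other network is made of type IV collagen, whose commonest trimer combines COL4A1 and COL4A2 chains. Nidogens and the heparan sulfate proteoglycan perlecan link both networks, collagen XVIII sits in vascular and epithelial membranes and releases endostatin, and SPARC binds collagens, type IV included. In embryoid bodies a basement membrane forms between the outer endoderm and the inner cells, and the polarity of the inner epithelium depends on it.

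Coordinates are those of mm10, from GENCODE M21. Col4a1 (chr8:11198423-11312826, minus strand) and Col4a2 (chr8:11312805-11449287, plus strand) lie head to head and their gene models share 22 bases at the start. Lama4 is at chr10:38965515-39110188 (plus), Lamb1 at chr12:31265234-31329644 (plus) and Lamc1 at chr1:153218922-153332786 (minus). Nid1 is at chr13:13437551-13512269 (plus) and Nid2 at chr14:19751265-19811787 (plus). Hspg2 is at chr4:137468769-137570630 (plus), Col18a1 at chr10:77052178-77166548 (minus) and Sparc at chr11:55394500-55423183 (minus). Counts were made over whole genes. Nid2 overlaps Rtraf and Col18a1 overlaps Slc19a1, both on the opposite strand, and antisense genes overlap Col4a1, Col4a2 and Nid1. Whether the counting used strand is not given in the sources used here, so reads from these pairs may not be separated.

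RefSeq start sites on GRCm38.p6, the assembly of mm10, were matched for 7 of the 10 genes (Lama4, Lamc1 and Nid2 had no entry), in 8 windows of 300 bases running from 250 bases before to 50 after the start. The stretches below lie before any annotated exon and were picked by length alone. They run from 191 to 232 bases, and the longest such stretch in any other window was 9 bases. Of their genes, Lamb1 had a difference near 0 with GSK-J4, and Nid1, Hspg2 and Col18a1 were called lower (values further on). Capitals mark matches on either strand to the TATA box TATAAA, the box CCAAT, the GC box GGGCGG or the Fos and Jun motif TGANTCA (N is any base), read 5′ to 3′ along the gene, so that a match on the other strand appears as its reverse complement; no capitals from different matches overlap. Lamb1 is read from chr12:31265043-31265233 on the plus strand, Nid1 from chr13:13437352-13437550 on the plus strand, Hspg2 from chr4:137468553-137468768 on the plus strand and Col18a1 from chr10:77166549-77166780 on the minus strand.
Lamb1: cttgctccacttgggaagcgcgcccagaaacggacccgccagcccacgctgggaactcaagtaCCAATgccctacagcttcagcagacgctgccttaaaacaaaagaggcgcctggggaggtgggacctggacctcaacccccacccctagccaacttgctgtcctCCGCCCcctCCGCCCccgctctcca
Nid1: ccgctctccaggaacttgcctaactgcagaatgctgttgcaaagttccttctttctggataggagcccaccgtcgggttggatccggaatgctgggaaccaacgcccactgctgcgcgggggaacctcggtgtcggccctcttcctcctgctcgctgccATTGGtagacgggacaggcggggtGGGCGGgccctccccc
Hspg2: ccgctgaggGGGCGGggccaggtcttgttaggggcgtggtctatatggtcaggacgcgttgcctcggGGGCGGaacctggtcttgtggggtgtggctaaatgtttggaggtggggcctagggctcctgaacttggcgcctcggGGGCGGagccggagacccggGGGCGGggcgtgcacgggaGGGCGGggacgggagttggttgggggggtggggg
Col18a1: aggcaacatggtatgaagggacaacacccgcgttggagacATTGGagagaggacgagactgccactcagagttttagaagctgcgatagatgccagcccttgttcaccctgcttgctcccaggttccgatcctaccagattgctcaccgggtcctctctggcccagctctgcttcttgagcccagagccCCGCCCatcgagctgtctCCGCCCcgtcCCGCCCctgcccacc

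Lamb1 holds 1 CCAAT and 2 GGGCGG matches, Nid1 holds 1 of each, Hspg2 holds 5 GGGCGG matches and Col18a1 holds 1 CCAAT and 3 GGGCGG matches. In the head-to-head windows, which lie wholly in annotated exons and are not printed, Col4a1 holds 1 CCAAT and 1 GGGCGG match and Col4a2 holds 1 CCAAT and 3 GGGCGG matches. The windows of Sparc and of the internal start of Col18a1 hold none of these letters. In them 238 and 241 of the 250 bases before the start lie in annotated exons, and both starts lie inside the GENCODE gene models. Over all 32851 RefSeq windows of the same length, CCAAT is found in 37.4%, GGGCGG in 35.7%, TATAAA in 13.6% and TGANTCA in 7.81%; neither of the last pair is in any of the 8 windows. GC content runs from 55.3% (Sparc) to 74.0% (Col4a1), against a median of 52.7% over all windows. These letter matches are a description of sequence, and both Lamb1 and genes called lower with GSK-J4 hold them.

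Total counts per library ran from 721853 to 32540164, with the 2 lowest in the Mettl14 line (CKO replicate 3 and GSK343 replicate 3), and from 3395675 to 8289423 with GSK-J4. Counts of Mettl14 and Mettl3 cover the whole gene, and the deleted part is not stated, so they check nothing about the deletion: Mettl14 was at 19.5 ± 3.30 CPM (the counts-per-million level) in its CKO and 16.9 ± 0.803 in its control, and Mettl3 at 17.9 ± 10.1 and 25.8 ± 9.13. Marker levels and sums in this paragraph are CPM without TMM scaling. Of the marker lists, pluripotency genes summed to 0.542 to 39.7 CPM in the 15 libraries without GSK-J4, with Pou5f1 at 0 in both Mettl14 groups without inhibitor. The 10 endoderm markers summed to 198 to 488 CPM in these libraries, led by Dab2 with group means of 140 to 337 CPM, and Sox17, Gata4, Foxa2, Afp and Ttr were each at 0 in all 3 libraries of at least 1 group. The 9 fibroblast markers, such as Col1a1 and Postn, were counted in every one of these 15 libraries and summed to 7760 to 14400 CPM. Libraries with GSK-J4 differed from all others in composition: mitochondrial genes took 0.678 to 0.957% of counts against 3.06 to 4.87%, and fibroblast markers summed to 605 to 1420 CPM.

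Levels below are CPM after TMM scaling within a line, with the mean ± SD of 3 libraries. Together the 10 genes took 0.604 to 1.05% of all counts in the 15 libraries without GSK-J4 and 0.185 to 0.269% in the 3 with it. To set genes beside each other, CPM scaled over all 18 libraries was divided by the exon length in kilobases. On this scale Sparc was the most abundant in every group, at 785 to 1007 CPM per kb in the 5 groups without GSK-J4, followed in these groups by Col4a1 and Col4a2, which ranged from 116 to 302 CPM per kb and whose libraries overlapped with each other in 4 of the 5 groups. Below them came Hspg2, Nid1, Lamb1, Col18a1 and Lamc1, between 27.3 and 86.0 CPM per kb; most neighbours in this order overlapped. Lama4 was the ninth at 6.98 to 10.8 CPM per kb, and Nid2 the tenth at 1.10 to 2.24 CPM per kb. With GSK-J4 the order changed: Sparc was at 70.1 ± 28.9, Col4a1 at 51.1 ± 5.57 and Lamb1 at 50.3 ± 9.88 CPM per kb, 3 genes whose libraries overlapped, and Lama4 was last at 0.0339 ± 0.0586 CPM per kb. Dividing by the longest transcript instead put Lamb1 ahead of Col4a1 with GSK-J4.

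**Figure D1:**
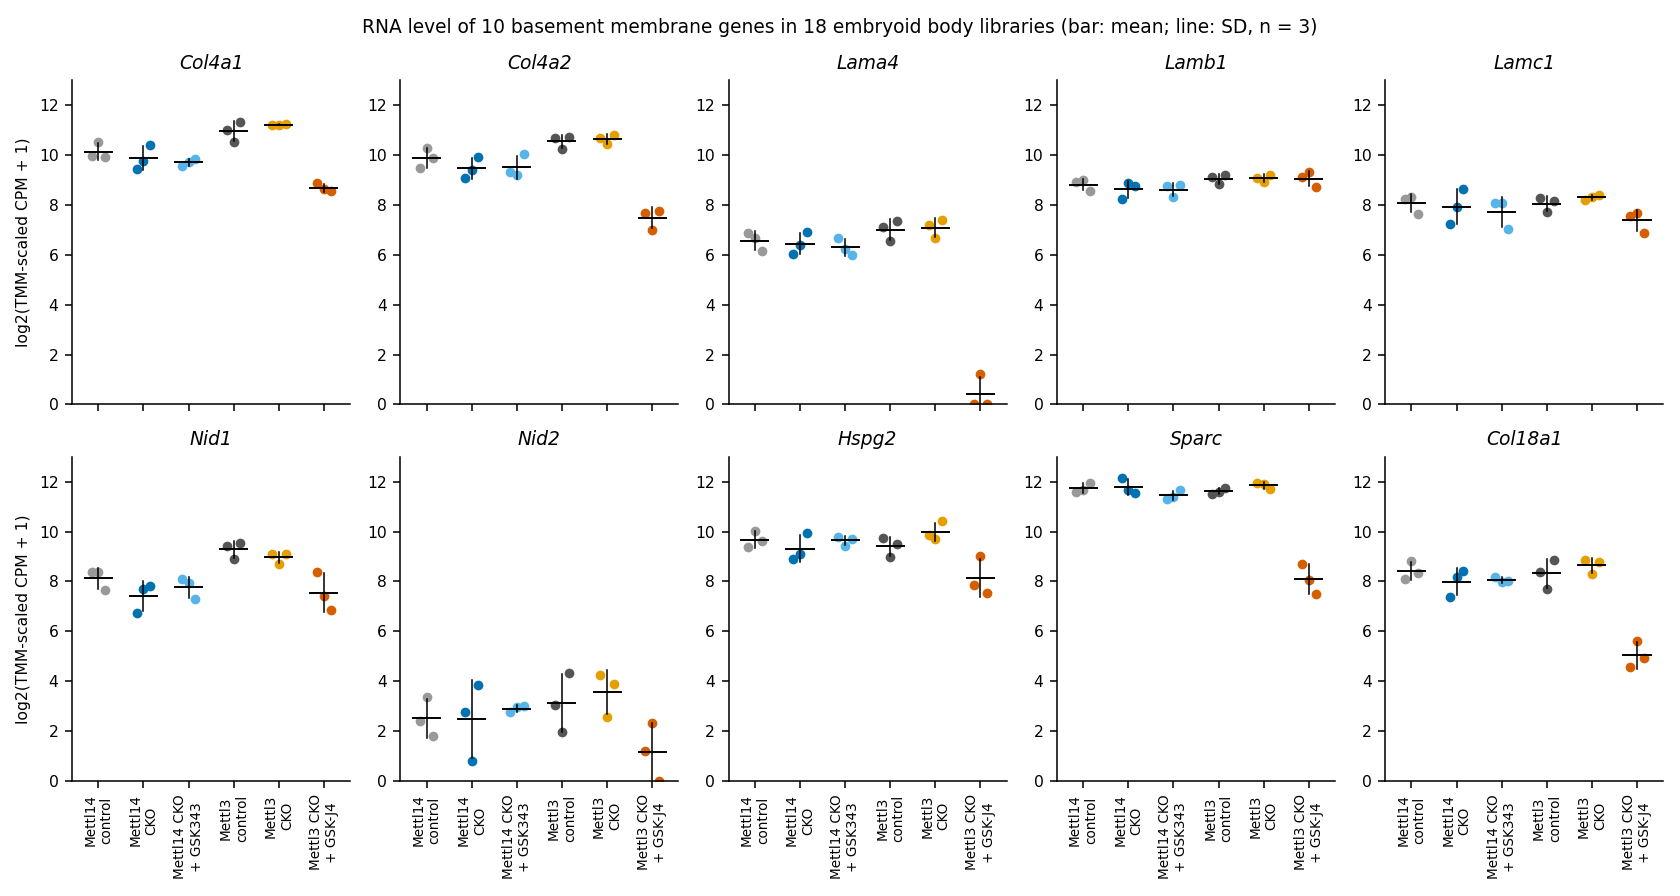
Level of each of the 10 genes in every library, as log2 of TMM-scaled CPM plus 1, by group; points are libraries, bars the mean and vertical lines the SD of 3. The GSK-J4 libraries lie below the other groups for Col4a1, Col4a2, Lama4, Sparc and Col18a1, while Lamb1 lies at a similar height in all 6 groups.

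GSK-J4 in the Mettl3 knockout went with lower RNA of most basement membrane genes and with a difference near 0 for Lamb1. By edgeR's quasi-likelihood test with Benjamini-Hochberg adjustment, 8 of the 10 were called lower (adjusted p under 0.05) and none higher, where 9.07% of the 16782 genes tested were called lower and 3.96% higher (13% in all). Higher genes were 30.4% of all genes called, and 49.0% with plain library sizes. The median log2 difference of the 10 was -2.65, against -0.06 over all genes tested. Libraries of the 2 groups did not overlap for 9 of the 10, against 22.3% of all genes in this direction and 10.9% in the other. Lama4 and Nid2 passed the low-count filter only through the groups without GSK-J4, so neither could have been called higher. Sparc, Col4a1, Col4a2, Col18a1, Lama4 and Hspg2 were called lower under each of the other settings tried and with each library of these groups left out. The calls of Lamc1 and Nid1 were lost under some of them.

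The type IV collagen pair had its lowest levels in these libraries. Col4a1 was at 465, 393 and 377 CPM with GSK-J4 and at 2372, 2341 and 2442 CPM in the CKO. It fell 5.79-fold (log2 difference -2.53 ± 0.21 SE, adjusted p = 3.88e-05). Col4a2 was at 206, 128 and 218 CPM with GSK-J4 and at 1630, 1396 and 1807 CPM in the CKO, a fall of 8.76-fold (-3.13 ± 0.24, adjusted p = 2.45e-05). All GSK-J4 libraries lay far below all CKO libraries for both genes. The count ratio of Col4a1 to Col4a2 within a library was 2.26, 3.07 and 1.73 with GSK-J4 and 1.46, 1.68 and 1.35 in the CKO, with no overlap.

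The laminin chains parted. Lama4, the α chain of vascular and mesenchymal laminins, was at 147, 100 and 167 CPM in the CKO, from 10809 counts in all. With GSK-J4 it had 12 counts in replicate 2 and none in the other 2 libraries. It passed the low-count filter only through the groups without GSK-J4, so it could not have been called higher. Pooled over each group without TMM scaling, CPM in the CKO was 188 times that with GSK-J4, with a 95% counting interval of 108 to 365, and the fitted log2 difference was -7.83 ± 0.71 (adjusted p = 5.84e-05). Without replicate 2 no count was left with GSK-J4 and the fitted value was -14.42, which depends on the fit's prior count. Lamb1, the commonest β chain, was at 550, 641 and 426 CPM with GSK-J4 and at 547, 477 and 595 CPM in the CKO. These libraries overlapped, and the difference was -0.00 ± 0.19 with a 95% interval from -0.43 to 0.42 (adjusted p = 0.997); it was 0.24 with plain library sizes, where the median of all genes moved from -0.06 to 0.19. Lamc1, the γ chain that pairs with LAMB1, was at 187, 206 and 117 CPM with GSK-J4 and at 296, 317 and 337 CPM in the CKO. It lay lower without overlap, by 1.86-fold (-0.90 ± 0.23, adjusted p = 0.0289), but the adjusted p was 0.0826 with plain library sizes, 0.0626 with a replicate block, 0.0585 with the 2 groups alone, and 0.0708, 0.0600 and 0.0978 without CKO replicate 1, 2 and 3. Lamb1 counts were 2.94, 3.12 and 3.62 times Lamc1 counts with GSK-J4 and 1.85, 1.5 and 1.77 times in the CKO.

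Of the other laminin chain genes described, Lamb2, the alternative β chain, was called lower. It was at 71.0 ± 13.9 CPM with GSK-J4 and 307 ± 21.3 CPM in the CKO (-2.11 ± 0.21, adjusted p = 0.000108). Lama1, Lama2, Lama3, Lama5, Lamb3 and Lamc3 did not pass the test, and their libraries overlapped. Lama5, the widespread epithelial α chain, was at 20.2 ± 10.1 and 24.9 ± 1.90 CPM, and Lama2, the α chain of muscle, at 19.6 ± 20.3 and 29.9 ± 5.36 CPM. Lama1, the α chain of early embryonic basement membranes, was at 1.15 ± 1.99 and 2.63 ± 1.93 CPM. Lamb1 libraries held 8.55, 7.38 and 6.90 times the counts of Lamb2 with GSK-J4, and 1.87, 1.60 and 1.79 times in the CKO.

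**Figure D2:**
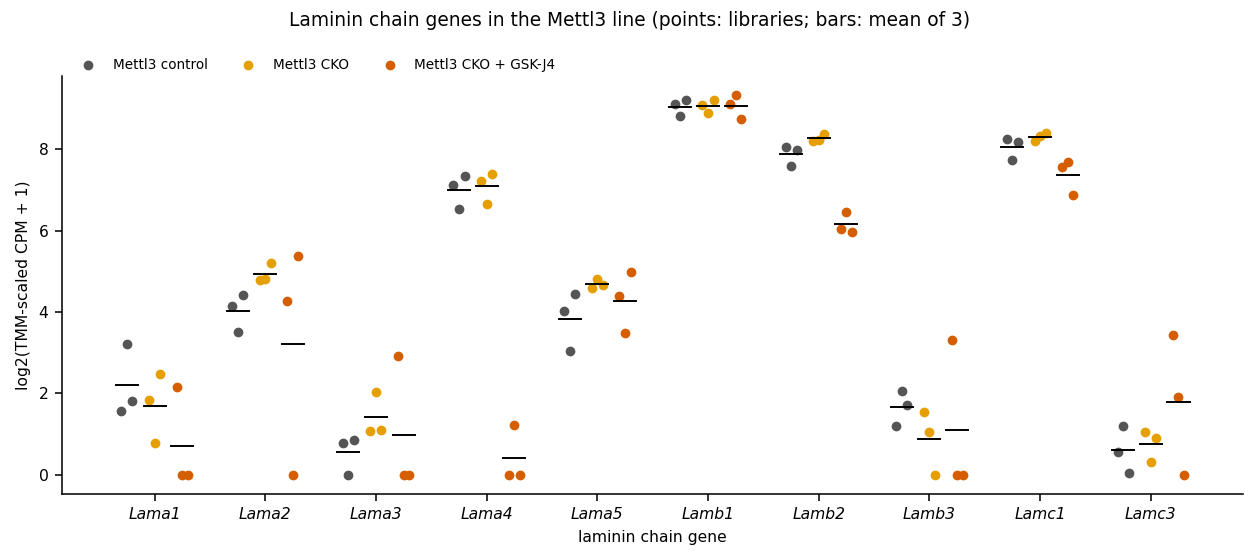
Level of 10 laminin chain genes in the 9 libraries of the Mettl3 line, as log2 of TMM-scaled CPM plus 1; points are libraries and bars the mean of 3. Lama4 and Lamb2 lie lower with GSK-J4, the Lamb1 libraries overlap, and most of the other chains are low and scattered in all 3 groups.

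Both nidogens had lower means. Nid1 was at 336, 171 and 113 CPM with GSK-J4 and at 540, 414 and 554 CPM in the CKO, lower without overlap. The fall was 2.44-fold (-1.29 ± 0.34, adjusted p = 0.0312); the adjusted p was 0.0650 with plain library sizes, 0.0740 with the 2 groups alone, 0.0924 and 0.0949 without CKO replicates 1 and 3, and 0.0634 without GSK-J4 replicate 2. Nid2, whose counts were few, was at 1.32, 3.98 and 0.00 CPM with GSK-J4 and at 18.1, 4.94 and 13.8 CPM in the CKO. Its libraries did not overlap, but the spread was wide and the test was not passed (-2.76 ± 1.27, adjusted p = 0.179). Like Lama4, Nid2 passed the low-count filter only through the groups without GSK-J4 and could not have been called higher.

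The proteoglycans and Sparc fell as well. Hspg2 was at 234, 515 and 187 CPM with GSK-J4 and at 920, 827 and 1355 CPM in the CKO, with replicate 2 the highest of the GSK-J4 libraries and still below the CKO. The fall was 3.31-fold (-1.73 ± 0.37, adjusted p = 0.0105). Col18a1 was at 22.5, 48.4 and 29.2 CPM with GSK-J4 and at 461, 313 and 440 CPM in the CKO, a fall of 12-fold (-3.59 ± 0.36, adjusted p = 0.000112). Sparc, the most abundant of the 10, was at 417, 263 and 181 CPM with GSK-J4 and at 3960, 3818 and 3322 CPM in the CKO. It fell 12.9-fold (-3.69 ± 0.28, adjusted p = 2.21e-05), and no GSK-J4 library came near a CKO library. Of the promoter stretches printed above, those of Nid1, Hspg2 and Col18a1 belong to genes called lower and that of Lamb1 to the gene that was not.

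Against the Mettl3 control, which shares the GSK-J4 libraries with the comparison just given, 6 of the 10 were called lower and none higher, beside 8.25% of all genes called lower and 3.16% higher (11.4% in all). Higher genes were 27.7% of all genes called, and 47.7% with plain library sizes. These were Col4a1 (-2.30 ± 0.21, adjusted p = 6.88e-05), Col4a2 (-3.04 ± 0.24, 3.61e-05), Lama4 (-7.75 ± 0.71, 7.39e-05), Nid1 (-1.62 ± 0.34, 0.0117), Sparc (-3.47 ± 0.28, 3.61e-05) and Col18a1 (-3.31 ± 0.36, 0.000200). The call of Nid1 was lost with only the 2 groups compared (adjusted p = 0.0524). Hspg2 was at 855, 507 and 724 CPM in the control, so that GSK-J4 replicate 2 at 515 CPM lay inside its range. Its difference was -1.15 ± 0.36 (adjusted p = 0.0617), and without that library it was -1.74 (adjusted p = 0.00255). Hspg2 was also called by DESeq2 (adjusted p = 0.0161) and limma voom (0.0253), with no low-count filter (3.24e-07) and with all 18 libraries fitted (0.0157). Lamc1 lay lower without overlap, where 23.1% of all genes lay lower and 10.2% higher, but missed the threshold (-0.66 ± 0.23, adjusted p = 0.0936); it was called with no low-count filter (0.0389) and without GSK-J4 replicate 2 (0.0457). Lamb1 was not called (0.03 ± 0.19, 95% interval -0.40 to 0.45), and Nid2 was not called (-2.42 ± 1.26, adjusted p = 0.235). The limit of the low-count filter given above for Lama4 and Nid2 holds here too.

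**Figure D3:**
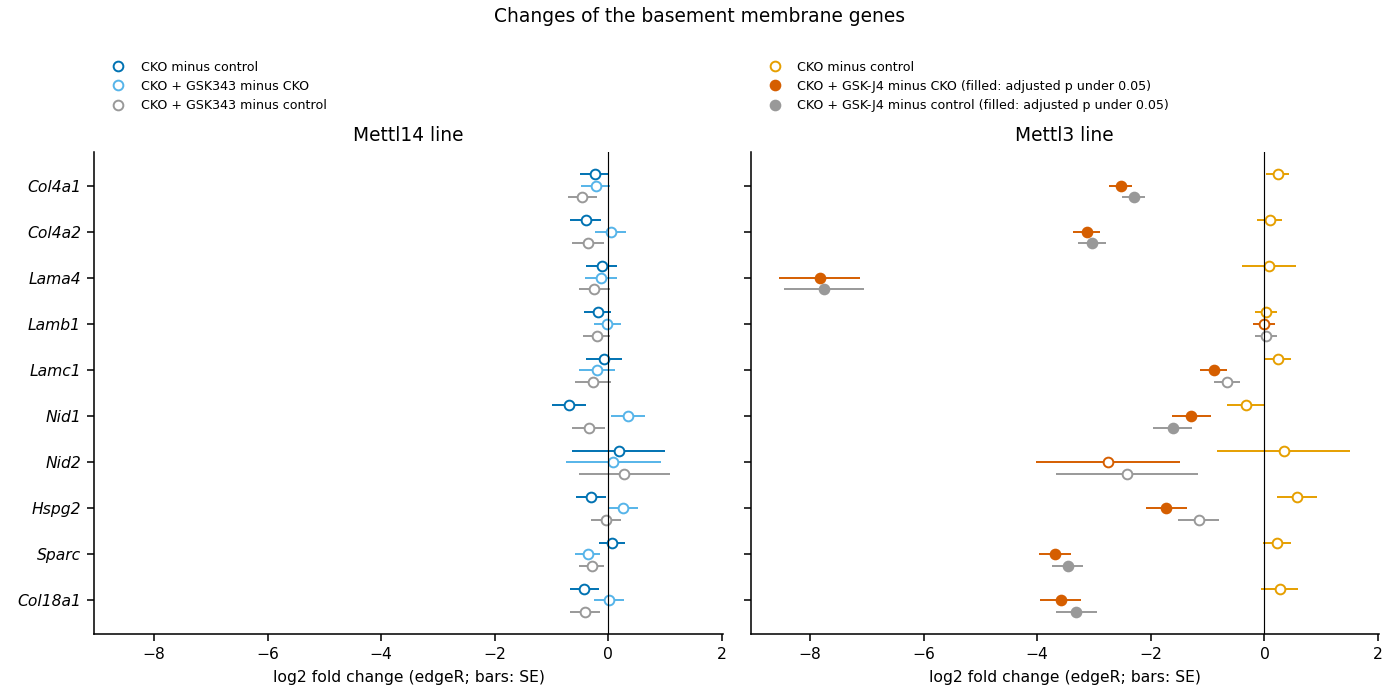
Log2 fold change of each gene, with its SE, in the 3 comparisons of the Mettl14 line (left) and of the Mettl3 line (right); filled points have an adjusted p under 0.05. Filled points appear on the right for comparisons with GSK-J4 and there are none on the left or for the Mettl3 CKO against its control.

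The other genes of the basement membrane were described by lists. Over all 16782 genes tested in GSK-J4 against the CKO, 9.07% were called lower and 3.96% higher, with a median of -0.06. Of 24 tested structural components outside the 10, 6 were called lower in GSK-J4 against the CKO and none higher, with a median log2 difference of -1.29. They were Fbln1 (fibulin), Fras1 (an epithelial adhesion protein of skin), Lamb2, the type IV collagen genes Col4a5 and Col4a6, and Col15a1, the relative of Col18a1. Col4a5 was at 7.02 ± 5.88 CPM with GSK-J4 and 74.4 ± 7.78 CPM in the CKO (-3.39 ± 0.72, adjusted p = 0.0105). Fbln1 was at 2.24 ± 1.95 and 79.5 ± 13.7 CPM (-5.13 ± 0.73, adjusted p = 0.00109). Col4a6 had no count in any GSK-J4 library and was at least 18.1-fold lower than in the CKO, from a floor of 3 counts over the group. It passed the low-count filter only through the groups without GSK-J4, so it could not have been called higher. Col15a1 had 16 counts in all with GSK-J4, and CPM in the CKO was 22.6 times as high (95% counting interval 13.9 to 39.7). Other components did not pass, among them agrin (Agrn, -1.63 ± 0.65, adjusted p = 0.125).

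Of 13 receptors, 5 were called lower and none higher (9.07% and 3.96% of all genes), with a median of -1.47 (-0.06 over all genes). Dystroglycan (Dag1) was at 108 ± 41.4 CPM with GSK-J4 and 335 ± 27.6 CPM in the CKO (-1.63 ± 0.28, adjusted p = 0.00324). Both discoidin domain collagen receptors were lower, Ddr1 with -4.01 ± 0.86 and Ddr2 with -1.84 ± 0.24 (adjusted p = 0.0112 and 0.000575), as was syndecan 2 (Sdc2, -2.01 ± 0.27, adjusted p = 0.000707). The laminin-binding integrin chain Itga7 had no count with GSK-J4 and was at least 87.3-fold lower than in the CKO, by the same floor. Like Col4a6, it passed the filter only through the groups without GSK-J4 and could not have been called higher. Itgb1, the β chain shared by most matrix integrins, was at 1353 ± 98.8 and 1780 ± 150 CPM and was not called (-0.40 ± 0.15, adjusted p = 0.103).

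Of 10 genes for assembly and crosslinking, 6 were called lower and none higher (9.07% and 3.96% of all genes), with a median of -1.50 (-0.06 over all genes). They include Serpinh1, the collagen chaperone (-1.98 ± 0.19, adjusted p = 0.000103), Colgalt1, which adds galactose to collagen (-2.65 ± 0.24, adjusted p = 6.25e-05), the lysyl hydroxylases Plod1 and Plod3 (-2.48 and -1.0), and Pxdn, which makes the sulfilimine crosslinks of type IV collagen (-1.74 ± 0.28, adjusted p = 0.00230). P4hb was the other one (-1.26 ± 0.15). The prolyl hydroxylase subunits P4ha1 and P4ha2, at 223 ± 19.7 and 110 ± 15.2 CPM with GSK-J4, did not pass (-0.14 ± 0.17 and -0.20 ± 0.20). Of 8 proteases and their inhibitors, 6 were called lower and none higher, beside the same shares of all genes, with a median of -2.30. Timp2 was at 442 ± 53.8 and 2244 ± 93.6 CPM (-2.34 ± 0.16, adjusted p = 1.04e-05). Mmp2 was at 251 ± 113 and 1752 ± 52.8 CPM (-2.80 ± 0.29, adjusted p = 0.000128), and its activator Mmp14 was lower by as much (-2.80 ± 0.36). Timp3, like Timp2 an inhibitor of such proteases, was at 90.8 ± 14 and 432 ± 32.9 CPM (-2.25 ± 0.20, adjusted p = 5.76e-05).

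**Figure D4:**
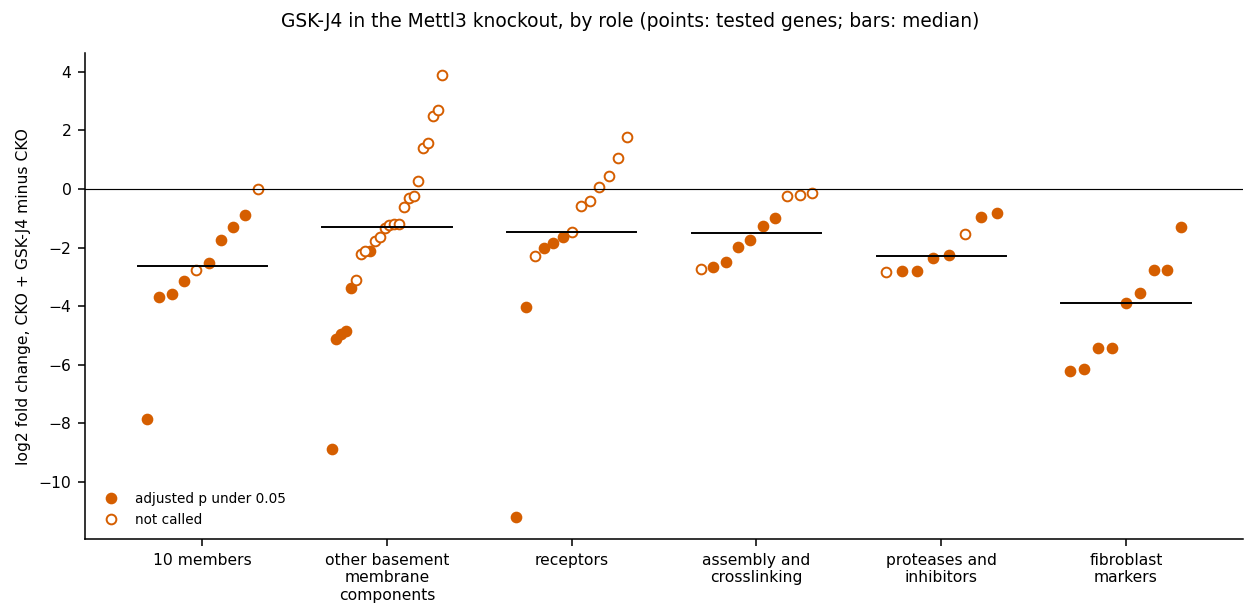
Log2 fold change of GSK-J4 against the Mettl3 CKO for each tested gene, by list; filled points have an adjusted p under 0.05 and bars are list medians. Values below -8 belong to genes with no count with GSK-J4 and depend on the fit's prior count. Called genes of all lists shown lie below 0.

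Marker lists of cell types went in different directions with GSK-J4 against the CKO. All 9 fibroblast markers were called lower with GSK-J4 against the CKO, with a median of -3.89, where 9.07% of all genes were called lower and 3.96% higher. Of the 9, 7 were counted in all 3 GSK-J4 libraries. The others, Dcn and Lum, passed the low-count filter only through the groups without GSK-J4 and could not have been called higher. Col1a1 was at 159 ± 75.1 and 6799 ± 513 CPM and Pdgfrb at 46.2 ± 12.7 and 547 ± 58.6 CPM. All list sums in this paragraph, and the levels of Sox17, Nes and Pax6, are CPM without TMM scaling. The fibroblast list summed to 605 to 1420 CPM with GSK-J4 and 12200 to 14300 CPM in the CKO. No fibroblast marker was at 0 in all 3 libraries. Of 8 pericyte or smooth muscle markers, 4 were called lower, and the list summed to 102 to 293 CPM against 612 to 780 CPM, with Rgs5 at 0 in all 3 GSK-J4 libraries. Endothelial markers summed to 39.8 to 62.7 CPM against 14.5 to 22.2 CPM. Of 6 tested, 1 (Tie1) was called higher, and Emcn was at 0 in all 3 GSK-J4 libraries. Tie1 had no count in the CKO or the control. It passed the filter only through the GSK-J4 libraries and could not have been called lower. Epithelial markers summed to 15.3 to 175 CPM against 1.14 to 10.4 CPM, with Krt18 called higher. Endoderm markers summed to 37.1 to 130 CPM against 251 to 378 CPM, and 1 of 7 tested (Dab2) was called lower. Dab2 and Thbd made up most of this sum in both groups, so it says little about the rest of the list. Sox17 lay higher without overlap, at 2.65 to 11.1 CPM against 0 to 0.0345 CPM. Of the 7 tested, 6 lay below 0 and 1 above, and none was called higher. Neural markers summed to 65.3 to 80.0 CPM against 176 to 194 CPM (2 of 3 called lower), with Nes at means of 60.3 and 153 CPM. Pax6, a neural marker outside the 3 tested, lay higher without overlap, at 0.362 to 10.5 CPM against 0 to 0.184 CPM. Schwann cell or neural crest glia markers summed to 0.294 to 21.2 CPM against 128 to 189 CPM (2 of 4 called lower, with Sox10 and Foxd3 at 0 in all 3 GSK-J4 libraries). No marker of this list was counted in all 3 GSK-J4 libraries. The 4 tested passed the filter only through the groups without GSK-J4 and could not have been called higher. Pluripotency markers summed to 0 to 64.9 CPM against 6.35 to 39.7 CPM, with none of 5 called. The part of these cell types, of the lower mitochondrial share and of the lower depth in the changes of the 10 genes was not tested. In bulk RNA, fewer cells of a type and less RNA per cell cannot be told apart.

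GSK343 in the Mettl14 knockout went with no called change of these genes. By edgeR 0 of the 10 were called in GSK343 against the Mettl14 CKO, where 0.0288% of 13882 genes were called, and no member reached an unadjusted p of 0.05; DESeq2 and limma voom also called none. The median of the 10 was -0.00, with 5 above and 5 below 0, and ran from -0.18 without CKO replicate 1 to 0.23 without CKO replicate 3. Sparc had the smallest p: it was at 2541, 2636 and 3241 CPM with GSK343 and at 4544, 3290 and 2983 CPM in the CKO (-0.36 ± 0.23, adjusted p = 0.942). The libraries overlapped for this gene and for each of the other 9, where 4.56% of all genes lay higher and 5.44% lower without overlap. Nid1 (0.35 ± 0.29), Hspg2 (0.26 ± 0.27) and Col4a1 (-0.22 ± 0.25) came next. Leaving Nid2 aside, every 95% interval lay between -0.87 and 0.96. That of Nid2 was wider, from -1.65 to 1.84, so these libraries say little about its change.

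The inhibitor effects were then compared in 1 fit of all 18 libraries, as the change with GSK343 in the Mettl14 CKO minus the change with GSK-J4 in the Mettl3 CKO. Of the 10, 7 were called higher, that is with a larger fall under GSK-J4, beside 8.3% of 16326 genes called in this direction and 1.92% in the other (10.2% in all). Higher genes were 81.2% of all genes called, and 71.0% with plain library sizes. The median of the 10 was 2.59, against 0.13 over all genes tested. The differences were 7.71 ± 0.71 for Lama4, 3.63 ± 0.46 for Col18a1, 3.36 ± 0.34 for Sparc, 3.20 ± 0.39 for Col4a2, 2.35 ± 0.34 for Col4a1, 2.03 ± 0.47 for Hspg2 and 1.67 ± 0.49 for Nid1 on the log2 scale. Their adjusted p ran from 2.86e-07 (Lama4) to 0.0321 (Nid1). The value of Lama4 rests on the 12 counts of GSK-J4 replicate 2 and was 13.73 without that library. In this fit too, Lama4 and Nid2 passed the low-count filter only through the groups without GSK-J4. Lamb1 was not called (0.01 ± 0.31, 95% interval -0.63 to 0.66). Lamc1 (0.73 ± 0.45, adjusted p = 0.344) and Nid2 (2.83 ± 1.53, adjusted p = 0.269) were not called. Without the 2 shallowest libraries of the Mettl14 line Lamc1 was called, with a difference of 1.42 (adjusted p = 0.0324). GSK343 was used only in the Mettl14 line and GSK-J4 only in the Mettl3 line, so inhibitor and line cannot be told apart.

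The Mettl14 knockout alone gave no called change among the 10. Against the Mettl14 control edgeR called 0 of 10, and 0% of all genes; 1 reached an unadjusted p of 0.05, and DESeq2 and limma voom called none. The median was -0.21, with 8 of 10 below 0, against 0.01 over all genes. Nid1 was at 105, 207 and 224 CPM in the CKO and at 329, 332 and 199 CPM in the control, with CKO libraries 2 and 3 just above the lowest control. Its difference was -0.69 ± 0.29 (unadjusted p = 0.0283, adjusted p = 1.00). Col18a1 (-0.42 ± 0.26), Col4a2 (-0.40 ± 0.28) and Hspg2 (-0.31 ± 0.26) followed. The libraries overlapped for all 10, where 3.28% of all genes lay higher and 4.2% lower without overlap. Apart from Nid2, every 95% interval lay between -1.30 and 0.59. Without the 2 shallowest libraries the median was -0.59, again with 0 called; it was -0.60 without CKO replicate 3 and -0.09 without control replicate 2 or CKO replicate 1.

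The Mettl14 CKO with GSK343 was also set against the Mettl14 control, which the comparison just given uses too. Here edgeR called 0 of 10, beside 0.166% of all genes (0.151% called higher and 0.0144% lower), and no member reached an unadjusted p of 0.05. DESeq2 and limma voom called none. The median was -0.28, with 9 of 10 below 0, and was -0.17 without control replicate 2. Col4a1 was at 757, 845 and 907 CPM with GSK343 and at 1005, 1461 and 974 CPM in the control, the only one of the 10 without overlap, where 6.71% of all genes lay lower without overlap and 4.65% higher. Its difference was -0.46 ± 0.25 (adjusted p = 1.00). Col18a1 (-0.41 ± 0.26), Sparc (-0.29 ± 0.23) and Col4a2 (-0.36 ± 0.28) had the next smallest p.

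The Mettl3 knockout alone likewise gave no call. Against the Mettl3 control edgeR called 0 of 10 and 0% of all genes, no member reached an unadjusted p of 0.05, and DESeq2 and limma voom called none. Here 9 of the 10 lay above 0, with a median of 0.23, but the median was -0.01 without control replicate 2, and Col4a2, Lama4, Lamb1 and Nid2 lay below 0 in at least 1 fit with a library left out. Hspg2 was at 920, 827 and 1355 CPM in the CKO and at 855, 507 and 724 CPM in the control, so that the lowest CKO library lay below the highest control (0.57 ± 0.36, adjusted p = 1.00). Col4a1 (0.23 ± 0.20), Lamc1 (0.24 ± 0.23) and Nid1 (-0.33 ± 0.34) followed. The libraries overlapped for all 10, where 6.48% of all genes lay higher and 6.61% lower without overlap. Apart from Nid2, every 95% interval lay between -1.07 and 1.35. The knockout effect in the Mettl14 line minus that in the Mettl3 line was below 0 for all 10, with a median of -0.36. With 1 library left out the median ran from -0.75 (without Mettl14 CKO replicate 3) to -0.20 (without Mettl3 control replicate 2), and Nid2 lay above 0 in at least 1 of these fits, at up to 0.53. Of the 10, 0 were called by edgeR, DESeq2 or limma voom, beside 0% of all genes for edgeR. None had an unadjusted p under 0.05, and the nearest was Hspg2 (-0.91 ± 0.47, unadjusted p = 0.0634, adjusted p = 1.00).

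Between the untreated controls of the lines, scaled over all 18 libraries, 0 of 10 were called by edgeR, beside 0.913% of all genes (0.76% called higher in the Mettl14 control and 0.153% lower); 2 reached an unadjusted p of 0.05, DESeq2 called none and limma voom called 2. Nid1 was at 355, 358 and 214 CPM in the Mettl14 control and at 640, 449 and 702 CPM in the Mettl3 control, lower in the first without overlap, as were 8.48% of all genes. The difference was -0.95 ± 0.34 (unadjusted p = 0.0114, adjusted p = 0.459); the adjusted p was 0.00191 with limma voom, 0.0219 with no filter on low counts and 0.0222 with only these 6 libraries. Col4a1 was at 1085, 1574 and 1046 CPM against 1923, 1392 and 2447 CPM, with overlap (-0.64 ± 0.24, adjusted p = 0.507; 0.0294 with limma voom). Sparc was at 3307, 3539 and 4252 CPM against 2767, 2926 and 3286 CPM, higher without overlap, as were 9.6% of all genes, with a difference of 0.31 ± 0.24 (adjusted p = 1.00). Line and any difference in culture or library batch cannot be told apart.

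Ratios of partner genes within a library do not depend on the scaling of libraries. They were chosen after values of these genes were seen, and 20 comparisons, of 4 ratios and of the share of all counts taken by the 10 genes, were made by a two-sided exact permutation test. With 3 libraries against 3 that test cannot give a p below 0.1, so none can pass. A p of 0.1 became 0.222 after Benjamini-Hochberg adjustment over the 20. For ratios picked in this way it restates that the groups did not overlap and adds no support. How often ratios of other gene pairs lie without overlap was not computed. Nid1 to Lamc1, a nidogen and the laminin chain it binds, was 0.705, 0.859 and 0.568 in the Mettl14 CKO and 1.10, 1.04 and 0.999 in its control. It was 1.83, 1.30 and 1.64 in the Mettl3 CKO and 2.21, 2.26 and 2.58 in its control. In both lines the CKO libraries lay below the control libraries without overlap (log2 differences -0.58 and -0.58, exact p = 0.1 each). With GSK343 the ratio was 1.01, 0.910 and 1.19, above the Mettl14 CKO without overlap (0.56, exact p = 0.1). The third values of these groups come from the shallowest libraries. Mettl14 CKO replicate 3 held 267 counts of Nid1 and 470 of Lamc1, and GSK343 replicate 3 held 112 and 94. With GSK-J4 the ratio of Nid1 to Lamc1 was 1.79, 0.832 and 0.964, which overlapped with the Mettl3 CKO (exact p = 0.3). The higher ratios of Col4a1 to Col4a2, Lamb1 to Lamc1 and Lamb1 to Lamb2 with GSK-J4, given above, also had an exact p of 0.1. So did the ratio of Lamb1 to Lamb2 in the Mettl3 CKO, lower than in its control (1.75 ± 0.139 and 2.26 ± 0.165). The share of counts taken by the 10 genes also had an exact p of 0.1 in the Mettl14 CKO against its control (0.682 ± 0.0264% and 0.803 ± 0.0815%) and with GSK-J4 against the Mettl3 CKO (0.238 ± 0.0459% and 1.01 ± 0.0546%), lower in both.

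**Figure D5:**
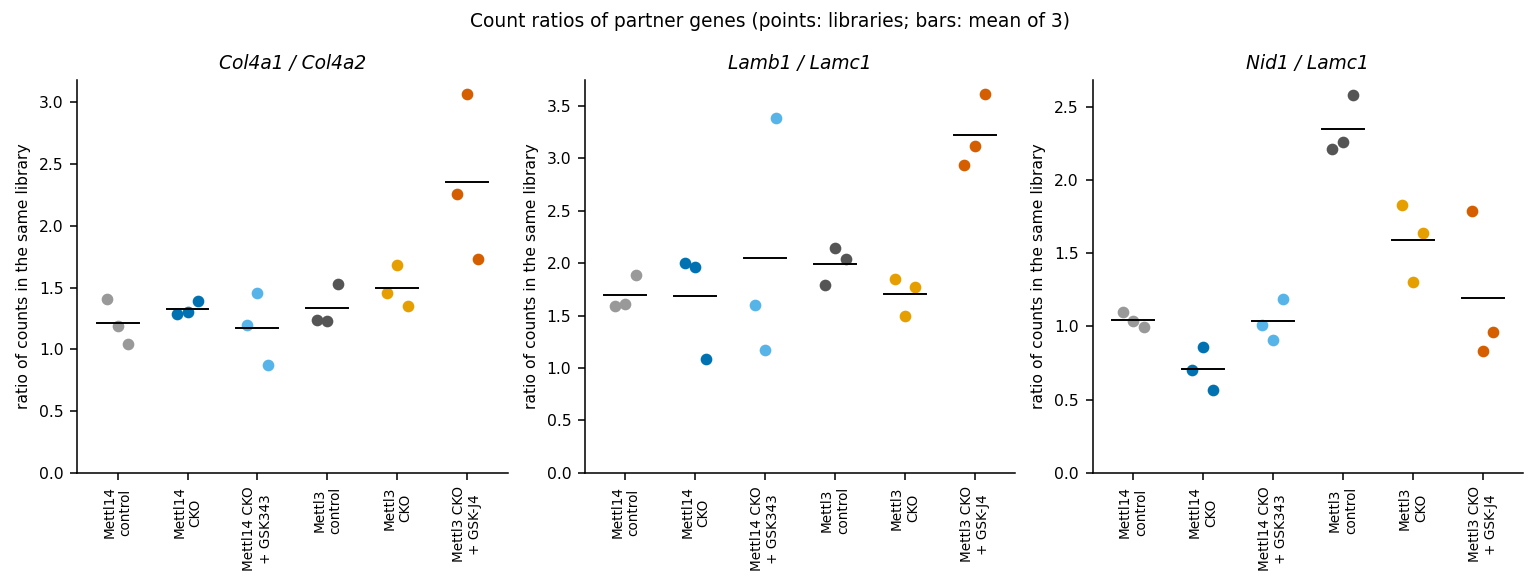
Ratio of counts within a library for Col4a1 to Col4a2, Lamb1 to Lamc1 and Nid1 to Lamc1, by group; points are libraries and bars the mean of 3. Nid1 to Lamc1 is lower in each CKO than in its control, and the first pair of ratios is highest with GSK-J4 on average.

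How far the 10 genes varied together depended on the GSK-J4 libraries. Over all 18 libraries, which differ in depth and come from 2 lines, Pearson's r between the log2 CPM of 2 members had a median of 0.68 over 45 pairs and was above 0 for 44. Over the 15 libraries without GSK-J4 the median was 0.52, 36 pairs were above 0, and Col4a1 and Col4a2 had an r of 0.924. All 9 pairs below 0 were those of Sparc, from -0.112 with Col18a1 to -0.504 with Nid1. The genes outside the 10 whose pattern was most like the mean of the 10, each scaled to its own mean and SD, were Col6a3 (r = 0.970), Creb3l2 (0.956), Tanc1 (0.948), Aebp1 (0.947) and Tgfbr2 (0.946), of 9220 genes over 18 libraries. Over the 15 libraries they were Col6a3 (0.957), Sned1 (0.929), Fbn1 (0.923), Col5a1 (0.912) and Cd276 (0.910). These correlations describe libraries that fall into separate groups, and no test was made of them.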

How the data were processed

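Per the labels' protocols, Trizol RNA was enriched for poly(A) on beads and made into libraries with a stranded SMARTer kit for total RNA. The submitters' processing notes name CASAVA, Trimmomatic 0.38, HISAT2 2.1.0, HTSeq and the mm10 build. The authors deposited unnormalised read counts for each gene identifier, per the labels. Neither the annotation release nor the strand setting is named. Of 54446 identifiers, 54409 matched GENCODE M21 and 37 did not.

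All else was computed from these counts. Each line's 9 libraries were fitted together, and all 18 for contrasts between lines, with edgeR 4.0.16 and R 4.3.3 (low-count filter filterByExpr, TMM scaling, quasi-likelihood F test, Benjamini-Hochberg adjustment over all genes tested); genes with an adjusted p under 0.05 are called, and intervals are 95%. The fits tested 13882 (Mettl14 line), 16782 (Mettl3 line) and 16326 genes, with a biological coefficient of variation of 0.394, 0.843 and 0.664. All 10 genes passed the low-count filter in each fit. Where GSK-J4 libraries were in the fit, Lama4 and Nid2 passed only through the groups without GSK-J4. Tested genes of the lists with no count with GSK-J4, such as Col4a6 and Itga7, entered the Mettl3-line fit only through those groups, as did Dcn and Lum. Counting intervals and floors (3 counts over a group) cover counting error only. Other settings were DESeq2 1.42.0, RLE factors, plain library sizes, no filter, a replicate block, limma 3.58.1 voom with quality weights, other sets of libraries and the omission of each library; fits of the control comparison without GSK-J4 or with its 6 libraries alone, and of the knockout difference without GSK-J4, were added after seeing the data. The test was also tried on simulated counts, but the outcome is not reported here and none of the results above rests on it. Levels per length used exon unions.

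The 10 genes, the lists and the markers were chosen with earlier results of these data known. Named are members that were called, otherwise up to 4 with the smallest p and those whose groups did not overlap, up to 4 genes per other list, and the 5 genes most like the members by correlation (mean over 10 CPM); other names were added after their values were seen. One further gene of the lists is not reported here. Python 3.11.15 with matplotlib 3.10.9 drew the figures.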

Additional observations from a re-analysis of the deposited data

Results flagged for a closer look

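For 7 of the 10 genes the change with GSK343 in the Mettl14 knockout differed from the change with GSK-J4 in the Mettl3 knockout by a test of the difference itself, an interaction term in edgeR's fit of all 18 libraries. The differences on the log2 scale, GSK343 minus GSK-J4, were 2.35 for Col4a1, 3.20 for Col4a2, 7.71 for Lama4, 1.67 for Nid1, 2.03 for Hspg2, 3.36 for Sparc and 3.63 for Col18a1. Those of Col4a1, Col4a2, Lama4, Hspg2, Sparc and Col18a1 kept their call in each of 12 fits that left out 1 library and in each of 7 other settings. That of Nid1 was called in 6 of those 12 fits and in 5 of the 7 settings; its adjusted p was 0.0528 with RLE factors, 0.0594 with plain library sizes, 0.0757 without Mettl14 CKO replicate 1, 0.0835 and 0.0674 without GSK343 replicates 1 and 2, 0.0616 and 0.0647 without Mettl3 CKO replicates 1 and 3, and 0.0520 without GSK-J4 replicate 3. The value of Lama4 was 13.73 without GSK-J4 replicate 2, the only library of its group with counts of this gene. The 2 inhibitors were used in different lines, so inhibitor and line cannot be told apart.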

How the results depend on the processing

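The count of called genes among the 10 stayed within 1.5 times its value in 8 of 9 comparisons. It ranged from 6 to 8 for GSK-J4 against the Mettl3 CKO, from 5 to 8 against the Mettl3 control and from 6 to 8 for the difference of inhibitor effects. Between the line controls, where edgeR called 0, it was 1 with no low-count filter, 2 with limma voom and 1 with only the 2 groups compared; the cause was not tested. With libraries left out in turn it ranged from 6 to 8 for GSK-J4 against the CKO or the control and from 6 to 7 for the inhibitor difference, and was 0 throughout elsewhere.

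Deviations from group means of same-numbered libraries correlated at -0.161 to 0.149, and those of differently numbered libraries at -0.202 to 0.325. The labels do not say whether equal numbers mark paired libraries, and with 3 libraries per group this check cannot exclude it. With the number as a block, the count was 7 for GSK-J4 against the CKO (Lamc1 lost, -0.91, adjusted p = 0.0626), 6 against the control, 7 for the inhibitor difference and 0 elsewhere. Over all genes, GSK-J4 against the CKO gave 2186 calls, 1407 with the block, 3717 with DESeq2, 3373 with all 18 libraries fitted and 977 with the 2 groups alone. Against the control the calls were 1916, and 1256, 3520, 3155 and 887 in the same order. The inhibitor difference gave 1668, and 856 with limma voom. The line controls gave 149, and 859 with limma voom, 583 with the 2 groups alone, 399 without the GSK-J4 libraries, 286 with DESeq2 and 280 with no filter. GSK343 gave 4 against the CKO, with 0 to 56 over the settings, and 23 against the control, with 2 to 71; the knockout comparisons gave 0, with at most 15 (Mettl14), 6 (Mettl3) and 18 (their difference).

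Of 1400 refitted log2 differences over all members and comparisons, 72 changed sign, none of them called; 52 came from leaving out 1 library. Among those the report gives, Lamb1 with GSK-J4 against the CKO was 0.071 with DESeq2 and with RLE factors, 0.238 with plain library sizes, 0.002 with the replicate block, and -0.209 to 0.066 with 1 library left out. Against the control Lamb1 was -0.06 with no filter, -0.004 with all 18 libraries and -0.134 to 0.095 with 1 left out. Its inhibitor difference was -0.118 with DESeq2, -0.116 with RLE factors, -0.166 with plain library sizes, -0.148 with limma voom and -0.131 to 0.163 with 1 left out. Col4a1 in GSK343 against the CKO was 0.024 without the 2 shallowest libraries and -0.405 to 0.096 with 1 left out.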
